A study of Homo sapiens with 6 samples.

Results

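Ribosomes are assembled in the nucleolus, where RNA polymerase I transcribes the precursor of the large ribosomal RNAs and many trans-acting proteins modify, cut and fold it into the small and the large subunit. The genes described here encode parts of that machinery: RNA polymerase I with its factors, the proteins of the small nucleolar ribonucleoproteins (snoRNPs, which guide methylation and pseudouridylation of ribosomal RNA), abundant nucleolar chaperones, and the assembly factors of both subunits. Many of these genes are known targets of the transcription factor MYC, and their expression is usually high in growing cancer cells.

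The list held 46 genes, chosen by name, and each was read by the brightest probe set that the platform annotation assigns to that gene alone. Such a probe set existed for 40 of the 46, and all 40 passed the filter on low signals described below, so 40 of 12206 tested genes are reported. NOP56, DKC1 and BOP1 are named by the annotation only together with small nucleolar RNA or microRNA genes (NOP56 with SNORD110, SNORD57, SNORD86 and MIR1292, for example), and no value is given for them. GNL3, EBNA1BP2 and DDX18 are not named by the annotation used here.

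The samples were SKOV3 cells, an established human ovarian cancer line, which received either 5 nM of a miR21 precursor (miR21 group, 3 arrays) or a negative control precursor (control group, 3 arrays) and were transfected for 24 h; the dose of the control precursor is not given in the labels. Total RNA was amplified, labelled and read on one array per sample, and both groups carry replicate numbers 1 to 3. The series addressed how miR-21 changes ovarian cancer cells that take it up, and all differences below are between the 2 precursors, since no untransfected cells were analysed here. Whether the replicates are separate cultures is not in the labels, so the spread behind each p-value may be technical only. SKOV3 is 1 cell line, and the values hold for it alone.

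The transfected precursor gives rise to the mature microRNA below, which is shown because it is the agent that distinguishes the groups. The sequence is from RefSeq (GRCh38.p14, chr17:59841273-59841294, plus strand), written 5′ to 3′, and the capitals mark the seed, bases 2 to 8, through which a microRNA pairs with its targets.
hsa-miR-21-5p: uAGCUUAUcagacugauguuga

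Values are linear signals scaled by the authors to the same trimmed mean on every array. With 3 arrays a group, precision is limited by their number. Of 9 markers of ovarian epithelial cancer cells, 7 passed the filter (KRT7, KRT8, KRT18, KRT19, EPCAM, ERBB2 and PAX8), and MUC16 and WT1 lay below it although the labels call the cells high-grade serous. Of the 11 measured markers of fibroblasts, leukocytes and endothelium, 3 passed the filter (COL1A1, COL1A2 and PECAM1). PECAM1 lay above the filter level only on the arrays of number 1 (397 with miR21 and 483 with control, against 22.3 to 53.4 elsewhere). COL1A1 was also highest there (824 and 675), but at 108 to 181 it lay above the filter level on the other arrays too. COL1A2 had signals of 160, 51.4 and 154 with miR21 and 172, 130 and 167 with the control precursor, so its signal was not confined to number 1. The arrays of replicate number 1 stood apart from the others: their median signal over all probe sets was 117 (miR21) and 125 (control), against 55.2 to 61.9 on the other 4 arrays. The log2 ratio of the 3′ over the 5′ control probe sets of ACTB, a sign of RNA or labelling quality, also followed the number, at 0.97, 1.73 and 0.44 on the miR21 arrays and 0.84, 1.53 and 0.37 on the control arrays of numbers 1, 2 and 3. That of GAPDH lay between -0.15 and 0.10. The 5′ control probe set of 28S ribosomal RNA was lower with miR21 in each number (5043, 797 and 1398, against 13915.5, 4952 and 1617). That of 18S ribosomal RNA was lower with miR21 in number 3 only (2079, 479 and 2202, against 1893, 432 and 3025). The part of these values in the results below was not tested.

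The nucleolar genes differed little between the precursors. The median log2 difference, miR21 minus control, of the 40 genes was 0.12, a value slightly above the median of all genes tested (-0.01). It was 0.13, 0.19 and 0.03 within replicate numbers 1, 2 and 3. In 38 of the 40 genes (95%) the mean difference was under 0.5 log2 units in size, against 78.8% of all genes tested, and 26 genes lay above 0 and 14 below (35%, against 51.2% of all genes). Below 0 lay 13 of the 40 in number 1 (background 52.1%), 12 in number 2 (50%) and 19 in number 3 (50%). Of the 19 members with another probe set above the filter, 11 had such a probe set with the opposite sign. The genes were brighter than average (median log2 signal 10.42 against 9.66 for all genes tested), with a smaller median SE of the difference (0.34 against 0.42). In a bulk sample, fewer cells with a transcript and less of it per cell cannot be told apart.

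Among the 40 genes, 0 passed limma at a Benjamini-Hochberg adjusted p under 0.05, against a background of 0% of all genes tested, and 0 had an unadjusted p under 0.05, against 2.44%. With the replicate number as a block, which compares the arrays of one number with each other, 0 of the 40 passed (background 0.0328%). In that fit 5 of the 40 (12.5%) had an unadjusted p under 0.05, against 20.1% of all genes, so the share was no higher than in the background. The 95% interval of the block fit lay wholly within 1 log2 unit of 0 for 39 of the 40 genes (97.5%, against 72.1% of all genes). Without the block this held for 17 genes (42.5%, against 24.8%), and for the other members the interval reached past 1 log2 unit. These intervals are not adjusted for the number of genes.

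**Figure D1:**
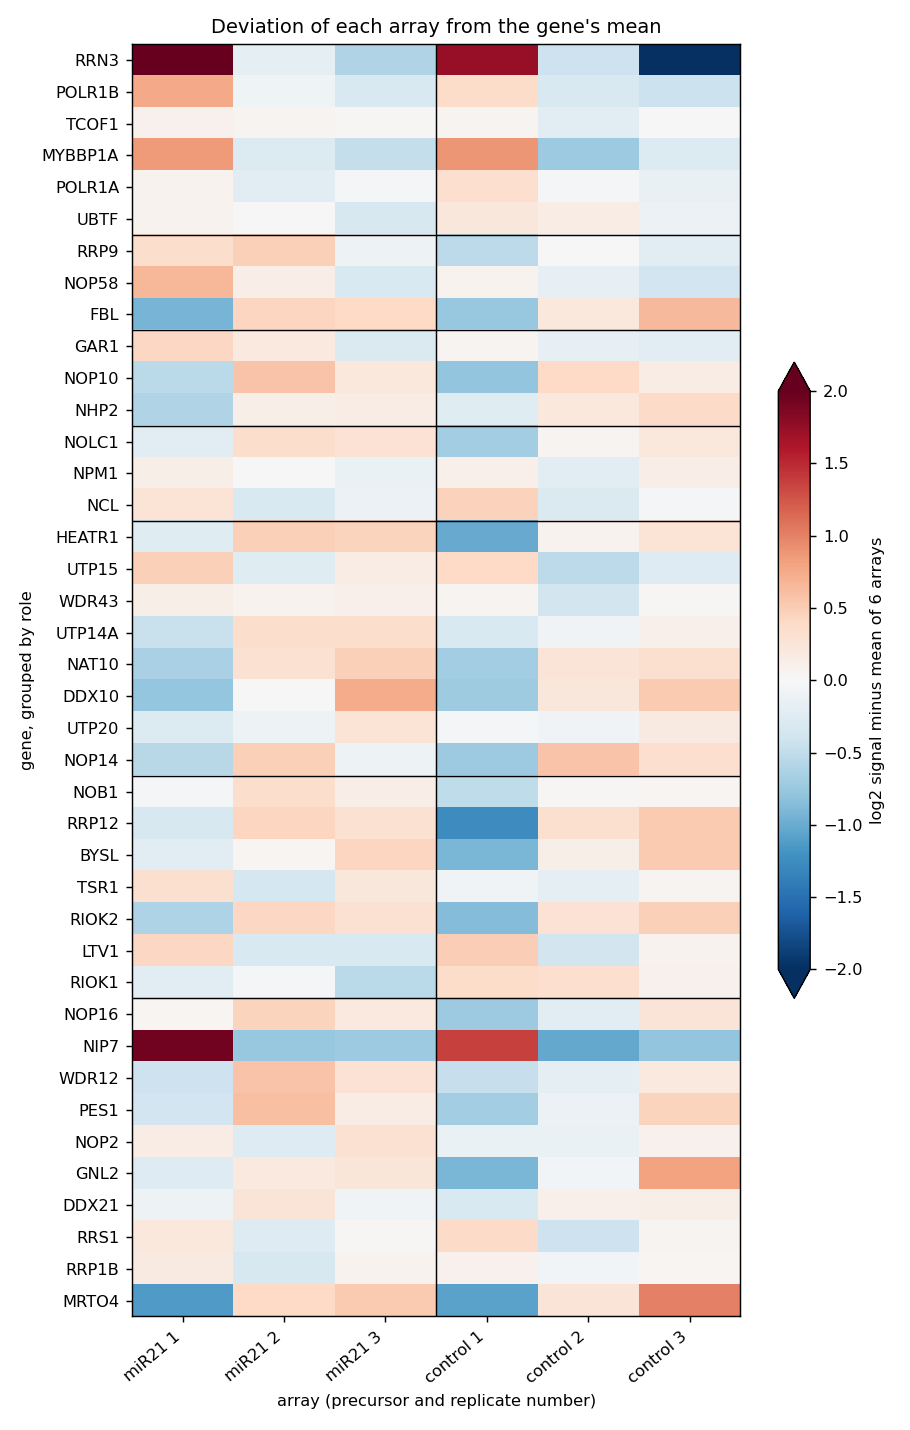
Deviation of the log2 signal on each array from the mean of the 6 arrays (colour), for the 40 measured genes (rows, in the order of RNA polymerase I, box C/D snoRNP, box H/ACA snoRNP, abundant nucleolar proteins, small subunit processome, late small subunit maturation and large subunit assembly, divided by lines) and the 3 miR21 and 3 control arrays (columns). Columns of the same replicate number look more alike than columns of the same precursor, with RRN3 and NIP7 high on both arrays of number 1.

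RNA polymerase I transcription is started by a small set of factors, and 6 members belong to this step. RRN3, which carries the polymerase to the promoter, had signals of 2174, 356 and 266 on the miR21 arrays and 1342, 302 and 51.4 on the control arrays of numbers 1, 2 and 3. It was higher with miR21 within each number, but the levels of the numbers lay so far apart that the groups overlapped. The log2 difference was 1.10, the largest of the 40 genes, and it did not pass limma (SE 1.24, adjusted p = 0.9999; with the block SE 0.39, adjusted p = 0.193). It rests on number 3, with a difference of 2.37 against 0.70 and 0.24 in numbers 1 and 2. Without control replicate 3, whose signal lay below the level of the filter, the value turned to -0.11. That setting keeps miR21 replicate 3 without its partner, and the means of the numbers span 3.87 log2 units. The turn thus mixes the level of the numbers with the precursors, and no direction is read from it. RefSeq lists 4 pseudogenes named after RRN3, and 2 further probe sets name RRN3 together with such copies, so the single probe set may read them too.

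UBTF, which bends and marks active ribosomal DNA, had signals of 1102, 1049 and 846 with miR21 and 1238, 1166 and 971 with the control precursor. The miR21 array was the lower in each number, by 0.17, 0.15 and 0.20 log2 units, and the groups overlapped (log2 difference -0.17, SE 0.28, limma adjusted p = 0.9999). The 3 other UBTF probe sets above the filter gave 0.05 to 0.49, so the direction depends on the probe set. The polymerase subunit genes POLR1A and POLR1B differed by -0.10 and 0.25. Their other probe sets above the filter gave -0.32 to 0.12 for POLR1A and -0.16 to 0.27 for POLR1B. The treacle gene TCOF1, whose product links transcription to ribosomal RNA modification, differed by 0.10, and MYBBP1A, which encodes a nucleolar regulator of transcription, by 0.07. The 2 other TCOF1 probe sets above the filter both gave -0.07, so its direction depends on the probe set. Another MYBBP1A probe set gave 0.23.

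The box C/D snoRNPs methylate ribosomal RNA at sites set by their guide RNA. FBL, the methyltransferase fibrillarin, had signals of 5984, 15290.1 and 14981 with miR21 and 6733, 13236 and 17912 with the control precursor. Both arrays of number 1 were the low ones, at less than the level of all others, and the precursors did not separate (log2 difference -0.07, and 0.03 with arrays centred on their median). NOP58, a core scaffold of the particle, had signals of 4603, 3181 and 2347 with miR21 and 3045, 2593 and 2226 with the control precursor. It was higher with miR21 in each number (0.60, 0.29 and 0.08), with overlapping groups and a log2 difference of 0.32 (SE 0.33, limma adjusted p = 0.9999; with the block SE 0.15, adjusted p = 0.278). Without miR21 replicate 1, and with control replicate 1 kept, the difference was 0.072.

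RRP9 encodes the specific protein of the U3 particle, which is needed for the first cuts of the precursor. Its signals were 755, 823 and 551 on the miR21 arrays and 410.02, 589 and 511 on the control arrays. The miR21 array was the higher in each number, by 0.88, 0.48 and 0.11 log2 units, and 1 miR21 array lay below the highest control array. The log2 difference was 0.49, a 1.41-fold higher signal (SE 0.31, limma adjusted p = 0.9999; with the block SE 0.21, adjusted p = 0.246).

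The box H/ACA particles turn uridine into pseudouridine and also form part of telomerase. NOP10, a small subunit of the particle, had signals of 8873, 19254 and 14991 with miR21 and 7443, 17063 and 14255 with the control precursor. The order of the numbers was the same in both groups, and the miR21 array was the higher by 0.25, 0.17 and 0.07 (log2 difference 0.17). NHP2, another subunit, had signals of 6685, 10994 and 11159 with miR21 and 8522, 11657 and 13176 with the control precursor. It was the lower with miR21 in each number, by 0.35, 0.08 and 0.24, and the log2 difference was -0.22 (SE 0.32, limma adjusted p = 0.9999; with the block SE 0.13, adjusted p = 0.381). GAR1, the third measured subunit, differed by 0.22, so these genes did not lie on one side of 0.

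Of the abundant nucleolar proteins, 3 were measured. NPM1, a chaperone that shuttles ribosomal particles out of the nucleolus, had 31299.9, 28906 and 26359 with miR21 and 30795, 24786 and 31560.5 with the control precursor. The log2 difference was -0.0048, and its sign turned with quantile normalization (0.03), so no direction is given. NPM1 has 50 pseudogenes by name in RefSeq, which the probe set may also read. NCL, nucleolin, had 12944, 8649 and 9815 with miR21 and 14650.1, 8764 and 10445 with the control precursor. It differed by -0.18, -0.02 and -0.09 within the numbers, and the mean of -0.10 turned to 0.0037 with arrays centred on their median. NOLC1, which escorts snoRNPs, differed by 0.28, with 0.48, 0.30 and 0.07 within the numbers. Its 2 other probe sets above the filter gave 0.15 and -0.28, the latter below 0 in each number. The direction of NOLC1 thus depends on the probe set.

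The small subunit processome is the large complex in which the precursor of the small subunit is first folded and cut. HEATR1, a scaffold of this complex that also acts in polymerase I transcription, had signals of 1157, 1912 and 1869 with miR21 and 679, 1440.4 and 1652 with the control precursor. It was higher with miR21 in each number (0.77, 0.41 and 0.18), and the low array of each group was that of number 1, so the groups overlapped. The log2 difference was 0.45 (SE 0.42, limma adjusted p = 0.9999; with the block SE 0.17, adjusted p = 0.206). Its 2 other probe sets above the filter gave 0.14 and -0.0055. The mean of all its probe sets, which takes in probe sets below the filter (-0.30 and -0.44), gave -0.03. Without control replicate 1, and with miR21 replicate 1 kept, the difference was 0.057.

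WDR43 was the only member whose miR21 arrays all lay above its control arrays. Its signals were 1448, 1401 and 1433 with miR21 and 1385, 1034 and 1361 with the control precursor. The gap rests mainly on the low control array of number 2, and the differences in the numbers were 0.06, 0.44 and 0.08 (log2 difference 0.19, SE 0.27, limma adjusted p = 0.9999). Groups without overlap and miR21 higher made up 3.38% of all genes tested, and 6.65% had no overlap in either direction, against 2 of the 40 members, so these counts are no higher than the background. NAT10, the acetyltransferase of small subunit RNA, had signals of 1306, 2516 and 2849 with miR21 and 1267, 2443 and 2543 with the control precursor. The numbers differed far more than the precursors, with a log2 difference of 0.08. The other members of this complex lay between -0.12 (NOP14) and 0.25 (UTP15), with UTP14A at 0.17, DDX10 at -0.03 and UTP20 at -0.06.

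**Figure D2:**
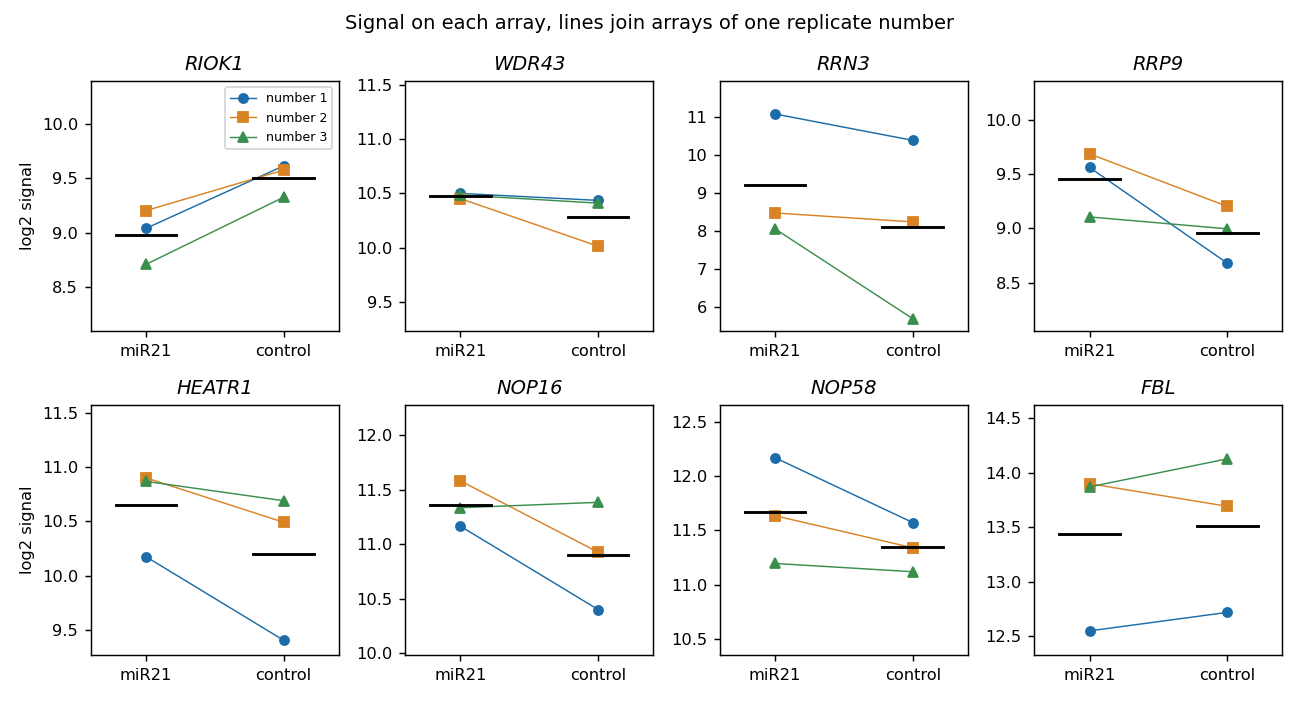
Log2 signal on each array for 8 genes, with miR21 left of control in each panel, a line joining the 2 arrays of a replicate number and a black bar at the mean of the group. RIOK1 and WDR43 show groups without overlap, while in RRN3, HEATR1 and FBL the replicate numbers lie farther apart than the precursors. The axis of RRN3 spans more log2 units than those of the other panels.

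The late steps of small subunit maturation run from the nucleolus to the cytoplasm. RIOK1, an atypical kinase that acts with the last cleavage of the small subunit RNA, was the only member whose miR21 arrays all lay below its control arrays. Its signals were 526, 590 and 418 with miR21 and 784, 764 and 642 with the control precursor. The differences were alike in the 3 numbers, at -0.58, -0.37 and -0.62 log2 units, and the mean of -0.52 stands for a control signal 1.44-fold above that with miR21 (SE 0.29, limma adjusted p = 0.9999). With the block the SE was 0.18, the 95% interval ran from -0.93 to -0.11, and the adjusted p was 0.184. Groups without overlap and miR21 lower made up 3.27% of all genes tested, and with arrays centred on their median the RIOK1 groups overlapped.

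RIOK1 has 1 probe set of its own, so no second probe set can be set beside this value. Its relative RIOK2, a kinase of the same pathway, differed by 0.07. NOB1, the endonuclease that makes the last cut, had signals of 1799.6, 2364 and 2023 with miR21 and 1296, 1878 and 1897 with the control precursor. It was higher with miR21 in each number (0.47, 0.33 and 0.09), with overlapping groups (log2 difference 0.30, SE 0.29, limma adjusted p = 0.9999; with the block SE 0.15, adjusted p = 0.296). Without control replicate 1, and with miR21 replicate 1 kept, the difference was 0.12. LTV1, an export factor of the small subunit, had signals of 1449, 883 and 878 with miR21 and 1528, 840.05 and 1134 with the control precursor, and its log2 difference of -0.12 came mainly from number 3 (-0.37). BYSL (0.18), RRP12 (0.28) and TSR1 (0.13), which also act in the maturation of the small subunit, were each highest relative to control in number 1, at 0.71, 0.95 and 0.40.

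The large subunit is built on a separate path, on which 10 members were measured. NOP16, a factor of the early nucleolar particle, had signals of 2297, 3066 and 2584 with miR21 and 1350.2, 1946.5 and 2675 with the control precursor. It was higher with miR21 in numbers 1 and 2 (0.77 and 0.66) and not in number 3 (-0.05), and the groups overlapped. The log2 difference was 0.46 (SE 0.33, limma adjusted p = 0.9999; with the block SE 0.19, adjusted p = 0.234), and another NOP16 probe set gave 0.23. The mean over all its probe sets, which takes in probe sets below the filter (-0.22 and -0.46), gave 0.00058. Without control replicate 1, and with miR21 replicate 1 kept, the value was 0.21. Its size thus depends on the probe sets and arrays used. DDX21, a helicase that couples polymerase I with processing, had signals of 8009, 10327 and 8188 with miR21 and 7001, 9189 and 9348 with the control precursor, and its log2 difference of 0.06 was smaller than the spread within either group.

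MRTO4, a ribosomal stalk assembly factor, had signals of 1628, 4721 and 5128 with miR21 and 1701, 4282 and 7185 with the control precursor. Both arrays of number 1 were far below the others, and the log2 difference was -0.14 (SE 0.63). PES1 and WDR12, of the complex that these proteins form with BOP1, differed by 0.24 and 0.29, most of it in number 2 (0.71 and 0.75). NIP7, which binds the maturing precursor, differed by 0.29, and another probe set gave -0.21. The other members were GNL2 at 0.11, NOP2 at 0.12, RRP1B at -0.04 and RRS1 at -0.02. Over these 10 genes the median was 0.24, 0.21 and -0.05 in numbers 1, 2 and 3.

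**Figure D3:**
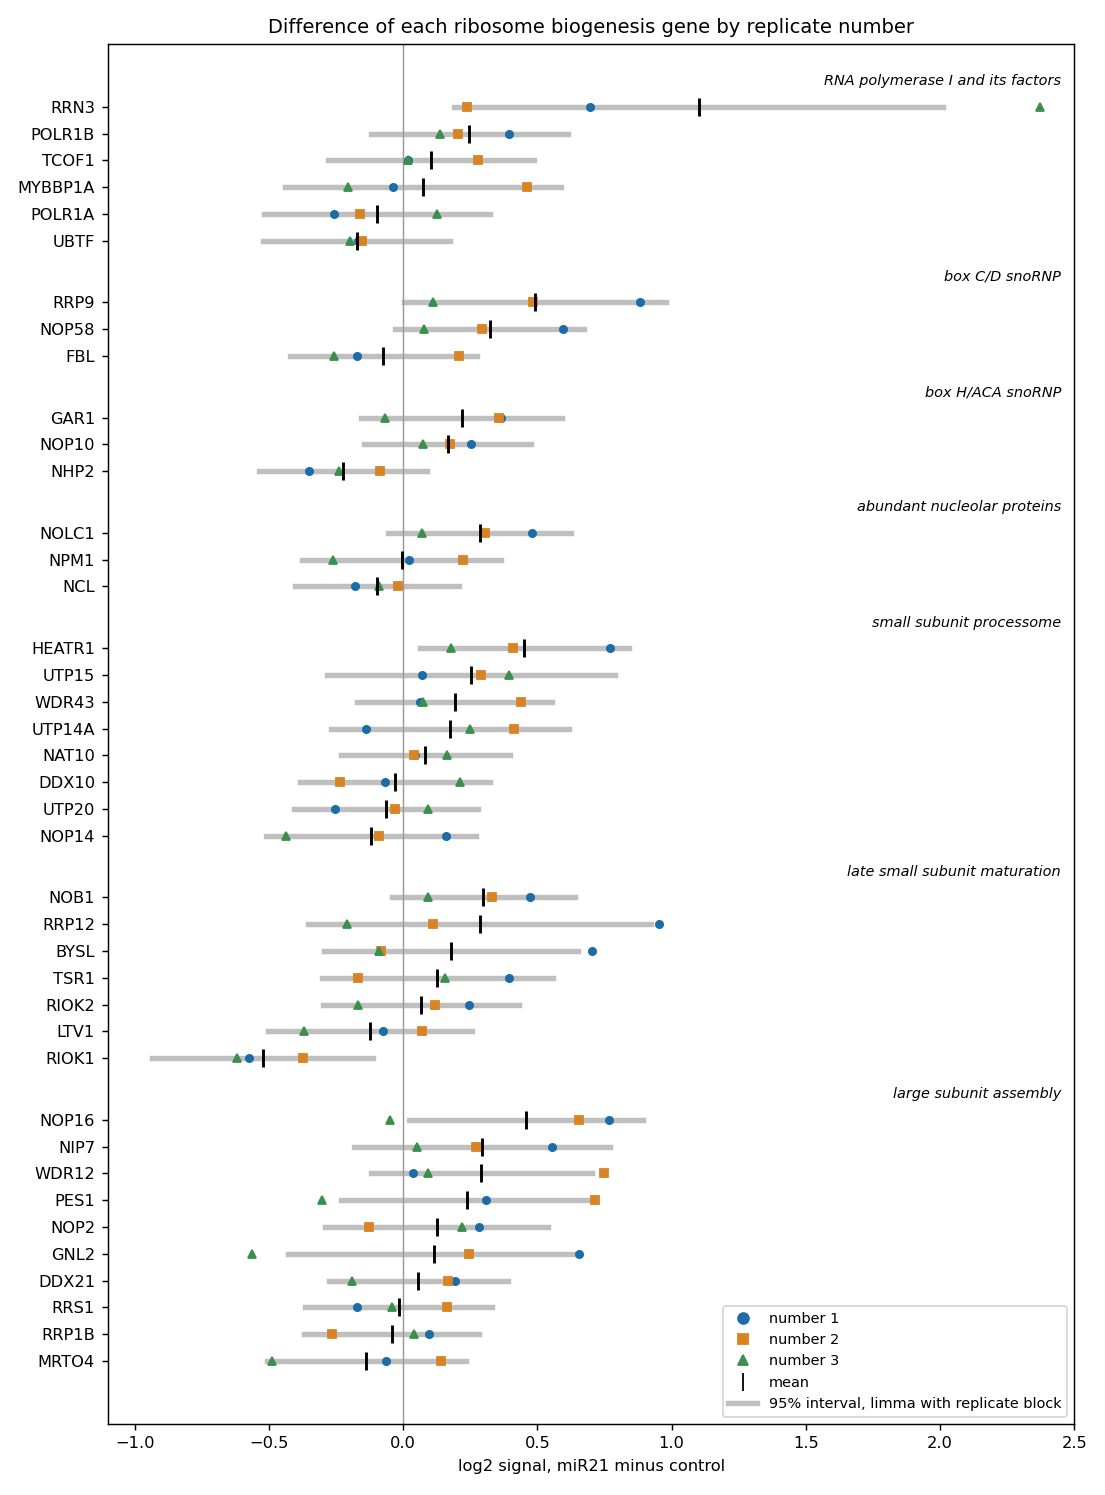
Log2 signal, miR21 minus control, of the 40 measured genes grouped by role, with a symbol for each replicate number, a black tick for their mean and a grey bar for the 95% interval of limma with the replicate block. Most bars cross 0, the bars of RRN3, HEATR1, RRP9 and NOP16 lie just above it and that of RIOK1 lies below it, and none of these genes passed after adjustment.

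The signals of these genes also varied with the replicate number. In 38 of the 40 genes the range of the means of the 3 numbers exceeded the size of the difference between precursors (95%, against 88.7% of all genes tested). The median range was 0.69 log2 units, beside a median size of 0.17 for the difference. A range over 3 means of 2 arrays is larger by construction than a difference between 2 means of 3 arrays, so these values are given as a description. In 3 genes the arrays of number 1 lay over 1 log2 unit above the mean of the others (RRN3, NIP7 and MYBBP1A, at 3.12, 2.47 and 1.31). In 7 genes they lay over 1 log2 unit below, MRTO4 (-1.65) and FBL (-1.27) among them. These shares were 7.5% and 17.5%, against 18.6% and 12.8% of all genes. Control replicate 1 held the lowest value of 15 of the 40 genes, and the median deviation of its members from their means was -0.19 log2 units, against 0.0043 for all genes on that array. Without it the median difference between precursors was 0.05.

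The differences within numbers were related across the members only in part. Over the 40 genes, the differences of numbers 1 and 2 had r = 0.41, those of numbers 1 and 3 r = 0.28 and those of numbers 2 and 3 r = 0.11. Genes share their arrays and are not independent replicates, and over all genes tested the values were 0.70, 0.16 and 0.08. In numbers 1 and 2, all 40 genes lay within 1 log2 unit of 0, whereas 5.88% and 7.51% of all genes lay over 1 log2 unit below 0. Over 1 log2 unit above 0 lay 534 and 615 of the 12206 genes tested. In number 3 none of the 40 lay that far below (background 1.49%), and RRN3 alone lay over 1 log2 unit above. All 3 numbers were above 0 for 14 of the 40 genes (35%, against 20.3% of all genes) and below 0 for 4 (10%, against 20.9%). Whether the numbers differ from each other was not tested, since each holds 1 array of each precursor.

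**Figure D4:**
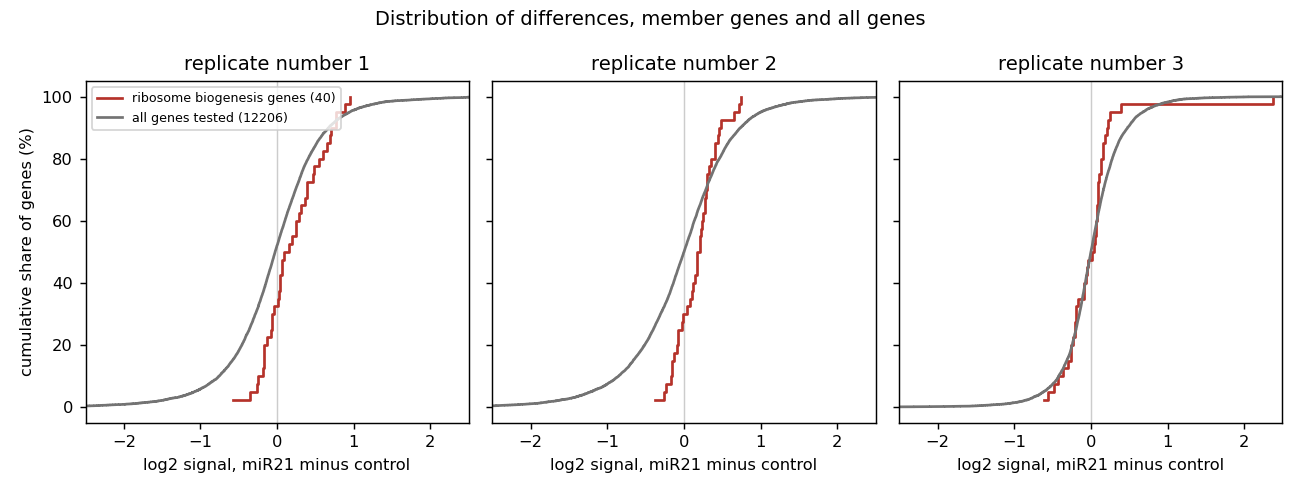
Cumulative share of genes (vertical axis, %) against the log2 signal, miR21 minus control (horizontal axis), within replicate numbers 1, 2 and 3, for the 40 ribosome biogenesis genes and all 12206 genes tested. In numbers 1 and 2 the curve of the 40 genes is steeper and lacks the lower and upper tails that all genes show. The medians of the 40 genes are 0.13, 0.19 and 0.03 in numbers 1, 2 and 3.

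Without both arrays of number 3, limma with the block called 9 of the 40 genes (22.5%), all higher with miR21, against 15.9% of all genes called higher and 16.9% called lower. These were NOP58, RRP9, NOLC1, HEATR1, NOB1, PES1, WDR12, GNL2 and NOP16. NOP16 had the smallest adjusted p (log2 difference 0.71, SE 0.14, adjusted p = 5.98e-05). In number 3 the differences of NOP16, PES1 and GNL2 were -0.05, -0.30 and -0.56. This fit has 1 residual degree of freedom among samples and leans on the spread shared over genes, and without number 1 or number 2 it called 0 of the 40.

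The wider machinery was as little separated. Of 133 further ribosome biogenesis genes, 128 were tested, with a median of 0.05, and 0 passed limma with or without the block. In the block fit 18 (14.1%) had an unadjusted p under 0.05, 14 higher and 4 lower, against 9.81% and 10.3% of all genes. RSL24D1, a large subunit assembly factor, had signals of 6099, 4548 and 2575 with miR21 and 3526, 2494 and 1936 with the control precursor. It was higher with miR21 in each number (0.79, 0.87 and 0.41), with overlapping groups (log2 difference 0.69, SE 0.40, limma adjusted p = 0.9999; with the block SE 0.15, adjusted p = 0.115), and another probe set gave 0.61.

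The others with smallest p on the higher side were NOL8 (log2 difference 0.59), the small subunit factor PNO1 (0.63, with another probe set at -0.40) and the RNA exosome subunit gene EXOSC8 (0.58), each with groups that did not overlap. Groups without overlap were found for 4 of the 128 genes with miR21 higher and for 1 with miR21 lower. The shares over all genes tested were 3.38% and 3.27%. On the lower side they were IMP3 (-0.47), which acts in the U3 particle, URB2 (-0.78), TBL3 (-0.50) and the large subunit ATPase gene MDN1 (-0.37). The 12 measured RNA exosome genes, which trim the precursor, had a median of 0.14, and the 12 further genes of RNA polymerase I and its factors had a median of -0.10. The 53 measured genes of cytosolic ribosomal proteins, the products that these factors assemble, had a median of -0.04 over all arrays, with -0.06, 0.31 and -0.40 within numbers 1, 2 and 3.

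MYC had signals of 1725, 2505 and 4033 on the miR21 arrays and 2870, 3712 and 5002 on the control arrays. The miR21 array was the lower in each number, by 0.73, 0.57 and 0.31 log2 units, and the groups overlapped because the numbers differ in level. The log2 difference was -0.54 (SE 0.39, limma adjusted p = 0.9999; with the block SE 0.14, adjusted p = 0.141), so MYC did not pass the test in either fit. Of 10 genes of the MYC network, 7 were tested and 0 passed, with 4 above 0 and 3 below. Of the other genes, MAX, the partner of MYC, differed by -0.46 and lay below 0 in each number, while its 4 other probe sets above the filter gave -0.16 to 0.10. MXD3 differed by -0.84, with opposite signs among the numbers. MYCL (0.49, with groups that did not overlap), MNT (0.44), MLX (0.25) and MXI1 (0.15) lay above 0.

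The promoters of the members were searched for CACGTG, the E-box that MYC and its partner MAX bind and that reads the same on both strands. RefSeq promoter sequences (GRCh38.p14, 250 bases before to 50 after the start of the gene) were given for 38 of the 46 genes, and 19 of these (50%) held the motif. It stood in 25.2% of the 115 promoters given for the further ribosome biogenesis genes, in 12.6% of those of the genes tested and in 8.77% of all promoters of the same length. Among the 63 promoters given for cytosolic ribosomal protein genes the share was 6.35%. The measured members with the motif had a median log2 difference of 0.11 (17 genes, from -0.14 to 0.49). Those without it had a median of 0.13 (17 genes, from -0.52 to 1.10). Whether the difference goes with the motif was not tested. A match is a description of the letters and not a site of binding.

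Promoters are shown for the member whose miR21 arrays all lay above the control arrays (WDR43), for RRP9 and NOP10, which were higher within each number, and for RIOK1, whose miR21 arrays all lay below. They are written 5′ to 3′ on the strand of the gene, with the motif in capitals. The motif begins 5 bases before the start in RRP9 (chr3:51941855-51942154, minus strand), just after the start in WDR43 (chr2:28894417-28894716, plus strand), and 170 and 11 bases before it in NOP10 (chr15:34343087-34343386, minus strand). RIOK1 (chr6:7389558-7389857, plus strand) has none in this window. These promoters are examples. Of the other members higher within each number, NAT10 holds the motif, while POLR1B, RRN3, HEATR1, UTP15, NOB1, WDR12 and NIP7 have none. No promoter was given for TCOF1, NOP58 and NOLC1. UBTF, NHP2 and NCL, lower within each number, have none either.
WDR43: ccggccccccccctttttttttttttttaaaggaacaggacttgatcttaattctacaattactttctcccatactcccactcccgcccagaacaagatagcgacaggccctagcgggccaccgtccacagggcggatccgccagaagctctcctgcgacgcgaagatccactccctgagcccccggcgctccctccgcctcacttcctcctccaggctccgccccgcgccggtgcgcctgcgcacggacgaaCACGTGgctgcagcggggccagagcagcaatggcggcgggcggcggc
RRP9: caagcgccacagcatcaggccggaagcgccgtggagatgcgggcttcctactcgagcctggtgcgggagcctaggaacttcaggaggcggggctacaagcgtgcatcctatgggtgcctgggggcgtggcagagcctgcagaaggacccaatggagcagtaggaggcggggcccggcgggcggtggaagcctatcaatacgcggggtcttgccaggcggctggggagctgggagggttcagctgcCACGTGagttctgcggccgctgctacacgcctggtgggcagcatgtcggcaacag
NOP10: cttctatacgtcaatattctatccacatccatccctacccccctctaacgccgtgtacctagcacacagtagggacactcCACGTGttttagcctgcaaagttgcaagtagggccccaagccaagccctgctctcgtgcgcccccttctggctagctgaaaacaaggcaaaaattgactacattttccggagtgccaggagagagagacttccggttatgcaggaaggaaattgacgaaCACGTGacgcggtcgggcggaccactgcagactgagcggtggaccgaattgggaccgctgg
RIOK1: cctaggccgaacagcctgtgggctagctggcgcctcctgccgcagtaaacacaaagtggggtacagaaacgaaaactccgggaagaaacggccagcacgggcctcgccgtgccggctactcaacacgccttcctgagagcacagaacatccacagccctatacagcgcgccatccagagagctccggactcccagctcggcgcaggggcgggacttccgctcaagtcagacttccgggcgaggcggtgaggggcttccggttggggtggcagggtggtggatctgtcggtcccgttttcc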

How the data were processed

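The submitters' processing notes name MAS5 as the source of the values, without version or settings. What the authors deposited is one linear intensity per probe set and array (54675 probe sets). Trimmed by 2% at both ends, every array averages 500.1, so a change common to most genes cannot be seen, and dim MAS5 signals are noisy. Of the probe sets, 41091 name 1 gene in the platform annotation and were used, the brightest by mean log2 standing for its gene; 1801 name several genes. The filter was the median of all probe sets other than controls (log2 6.03, or 65.5 in signal), and 12206 of 19775 genes passed it. No pseudocount was added.

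The test was limma 3.58.1 (R 4.3.3) on log2 signals, with eBayes moderation that follows a trend in mean signal, and p-values were adjusted over every tested gene by Benjamini-Hochberg. The planned fit has no block. Arrays of the same replicate number (taken from the titles) deviated together from their group means, with r = 0.90, 0.64 and 0.64, so the fit with the number as a block is given beside it; numbers 2 and 3 crossed gave 0.41 and 0.28. As a check of the code, the fits were run on data simulated with a level shared within each replicate number. This does not show how they behave on the real arrays. The members and lists were chosen with earlier results of these data known. Values per array are given for members past the threshold, without overlap, brightest in their role, or among the 6 of smallest p per direction in the block fit, and of the further genes for up to 4 per direction. Alternatives were other normalizations, filters, probe set rules and fits, and each array left out.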

Additional observations from a re-analysis of the deposited data

How the results depend on the processing

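The count of members called stayed at 0 with quantile normalization, with arrays centred on their median, with 16 added to the signal before log2, with other filters and probe set rules, without the variance trend, with array weights (a fit that stopped before convergence), with the replicate block and without any single array. With the replicate block and both arrays of a number left out, 9 members (22.5%) and 35 further ribosome biogenesis genes (27.3%) were called without number 3, against 32.8% of all genes, and 0 of either without number 1 or number 2. The replicate block changed no other call. With median centring the member median was 0.22, against 0.09 for all genes in that setting, and 1 member had groups without overlap. Without single arrays, 3 to 7 members (7.5% to 17.5%) had groups without overlap, against 9.71% to 21.7% of all genes. Without both arrays of number 1, 2 or 3 there were 12 (30%), 5 (12.5%) and 8 (20%), against 26.1%, 14.1% and 29.5% of all genes. The member median was 0.039 with the mean of probe sets, against -0.036 for all genes in that setting, lay between 0.05 and 0.19 without arrays, and was 0.11 without RRN3, an alternative chosen after seeing the data.

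Of 340 values of the named members under alternatives, 301 kept their sign and call, 34 changed sign and 5 newly passed, all without number 3. The sign turned for FBL (0.026 with median centring, 0.046 with array weights), NCL (0.0037 and 0.043), LTV1 (0.077 with array weights), NPM1 (0.032 with quantile normalization, 0.095 with median centring, 0.16 with array weights), and with the mean of probe sets for HEATR1 (-0.031) and UBTF (0.16). In the block fit it turned for DDX21 without number 1 (-0.011), and without number 3 for FBL (0.019), MRTO4 (0.039) and NPM1 (0.12). Without single arrays the lowest and highest values were -0.078 and 0.13 for DDX21, -0.47 and 0.37 for FBL, -0.36 and 0.091 for LTV1, -0.70 and 0.40 for MRTO4, -0.24 and 0.43 for NAT10, -0.26 and 0.11 for NCL, -0.40 and 0.018 for NHP2, -0.19 and 0.48 for NOP10, -0.12 and 0.059 for NPM1, -0.11 and 2.24 for RRN3. Leaving out 1 array keeps the other array of its number, so these values mix the level of the numbers with the precursors. In the block fit without both arrays of a number, the lowest and highest values were -0.21 and 0.019 for FBL and -0.28 and 0.039 for MRTO4. For DDX21 they were -0.011 and 0.18. The part of this imbalance in the changes of sign was not tested. NOP16 kept its sign but was 0.00058 with the mean of probe sets, a rule that also takes in probe sets below the filter. Among the genes whose sign held without single arrays, the lowest and highest values were 0.057 and 0.70 for HEATR1, 0.072 and 0.56 for NOP58, 0.21 and 0.70 for NOP16, 0.12 and 0.39 for NOB1, 0.35 and 0.66 for RRP9, 0.056 and 0.27 for WDR43, and -0.28 and -0.058 for UBTF. RIOK1 lay between -0.63 and -0.38 without single arrays.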
